A study of Mus musculus with 21 samples.

Results

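The autosomal genes of a pair of mouse formative stem (FS) cell lines were compared, FS line 2 against FS line 1. The comparison used 6 of the 21 samples of the series, chosen by the line named in their labels. Line 1 was sampled at passage 10, 11 or 18. The samples of line 2 were from passage 12, 13 or 16. Both lines were labelled Formative Stem Cells and were grown in the medium named A3XR, and 1000 cells were collected for each sample. The labels name the lines 5cdr1 and 5cdr2 and give no strain, sex, embryo or derivation for either, so each line stands for itself and its passages are repeat samples of the same cells. The other cultured samples were EpiSCs of the E14 line in media named AF or AFX, at passages 14, 15 and 16 in each. They entered the fit as separate groups, and 9 epiblasts of embryonic days 5.0, 5.5 and 6.0 were used for levels only.

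FS cells are pluripotent cells derived to hold the state of the epiblast soon after implantation, between naive embryonic stem cells and the primed EpiSCs that resemble a later epiblast. In such cells imprinted genes, which are read from the maternal or the paternal chromosome according to DNA methylation inherited from the gametes, can gain or lose that mark in culture. Chromosome gains are also known to spread through cultures of pluripotent cells. Lines derived and passaged apart can therefore differ in single genes, in whole gene domains and in whole chromosomes.

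Total counts were between 7753188 and 15916800 per FS sample, and 3 counts, taken as the floor of detection, were 0.181 to 0.386 CPM (counts scaled to library size). Of 33861 genes with counts deposited, 16052 were tested, of which 15442 were autosomal by their Ensembl identifier in GENCODE M21 (mouse build GRCm38). Pou5f1, which defines pluripotent cells, was at 432, 401 and 461 CPM in line 1 and 382, 513 and 374 CPM in line 2, and Sox2 was at 45.3 to 83.1 CPM in all 6 samples. Of 17 visceral and primitive endoderm markers Afp, Apob, Hnf4a, Spink1 and Ttr had no count in any FS sample. The 17 together summed to 11.7 to 17.4 CPM in line 1 and 13.2 to 15.2 CPM in line 2. On the sex chromosomes, outside this comparison, Xist was at 291 to 771 CPM in line 1 and at most 1.01 CPM in line 2, while the Y-linked Ddx3y was at 80.9 to 102 CPM in line 2 and at most 0.386 CPM in line 1. Line, chromosomal sex and derivation cannot be told apart with 1 line of each kind.

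Between the lines 579 autosomal genes passed the threshold (edgeR quasi-likelihood F-test, Benjamini-Hochberg adjusted p under 0.05 over all 16052 genes), which is 3.75% of those tested. More genes were higher in line 2 than lower, 393 (2.55%) against 186 (1.2%). The difference was at least 2-fold for 344 of them, 234 higher and 110 lower, and the median over all autosomal genes was -0.02 on the log2 scale. In all 579 the 3 samples of one line lay apart from the 3 of the other, as they also did in 27.2% of all autosomal genes tested. At an unadjusted p under 0.05 were 17.3% of the autosomal genes, 8.7% higher and 8.59% lower in line 2. The count fell to 294 without passage 11 of line 1, and to 343, 309 and 330 without passages 12, 13 and 16 of line 2. Without passage 18 of line 1 it was 430, and the genes higher in line 2 numbered 261. Long intergenic RNAs were called in 7.59% of 303 tested and protein-coding genes in 3.73% of 12751. The p-values measure the spread between passages of a line and not between independent derivations.

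**Figure D1:**
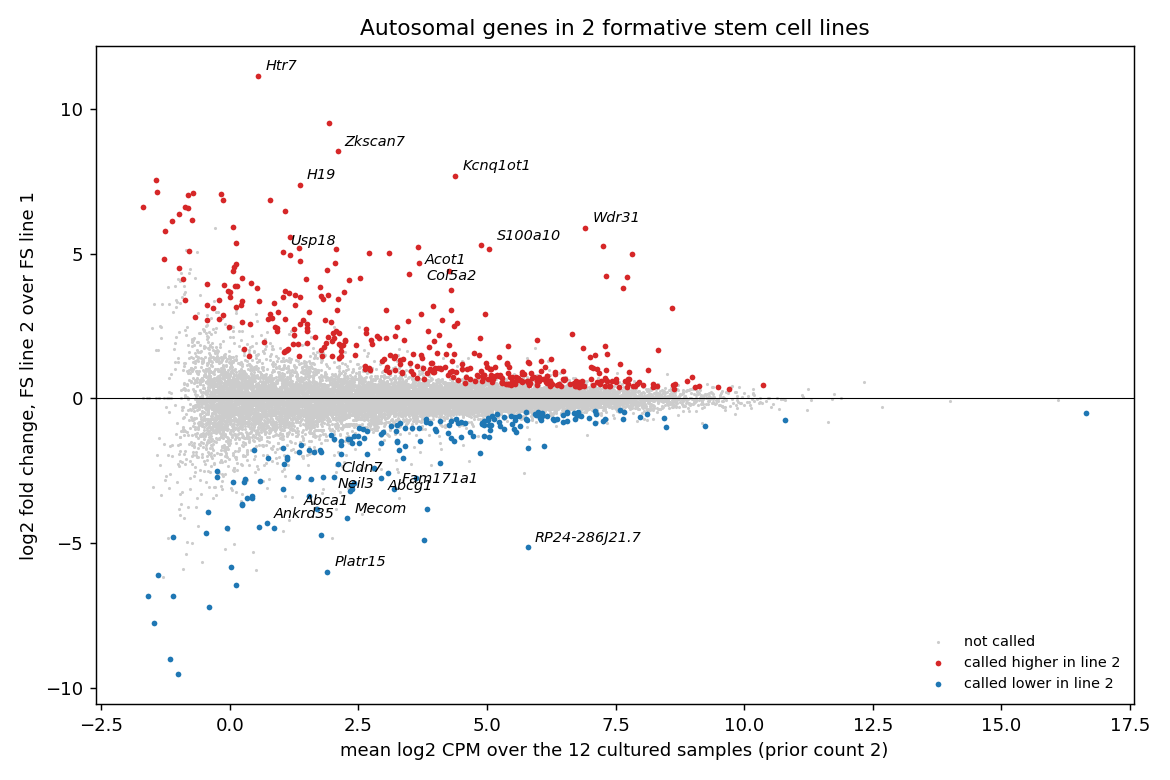
Each point is 1 of 15442 autosomal genes. The x axis is its mean log2 CPM over the 12 cultured samples and the y axis its log2 fold change of FS line 2 over FS line 1. Red points (393) were called higher and blue points (186) lower in line 2, and the names mark genes described in the text, with Htr7 the topmost.

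The widest gap was in Htr7 on chromosome 19 (35958734 to 36057507, minus strand), which encodes a serotonin receptor coupled to cyclic AMP. Htr7 was at 117, 110 and 90.1 CPM in the passages of line 2 and at 0.106, 0 and 0 CPM in line 1, where 1 read was counted in the 3 samples together. It was at most 0.665 CPM in the 6 EpiSC samples and at most 0.795 CPM in the 9 epiblasts. Line 2 was thus the only one of the cultured groups with the transcript at a high level, and its 3 samples lay close together. Against the floor of 3 counts in each line 1 sample the level was at least 328-fold higher (adjusted p = 3.29e-08, edgeR quasi-likelihood test).

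The promoter of Htr7 is shown because, of the genes whose promoter was to be shown, Htr7 alone had a promoter sequence available. The sequence is the stretch from 250 bases before to 50 after the start of the RefSeq transcript, chr19:36057311-36057610 on the minus strand of GRCm38.p6, with each CG dinucleotide in capitals. The GENCODE gene span given above begins inside this stretch, upstream of the RefSeq start, so part of it lies within the GENCODE gene.
Htr7: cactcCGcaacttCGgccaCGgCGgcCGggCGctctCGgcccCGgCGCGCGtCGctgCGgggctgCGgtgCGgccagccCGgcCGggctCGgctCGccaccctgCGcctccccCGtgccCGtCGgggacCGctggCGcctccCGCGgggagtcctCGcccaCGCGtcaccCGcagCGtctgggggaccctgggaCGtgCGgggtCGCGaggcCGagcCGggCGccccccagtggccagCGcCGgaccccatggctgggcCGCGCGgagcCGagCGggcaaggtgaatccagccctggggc
It holds 46 CG dinucleotides, counted as the letters CG, which read the same on both strands. Of 32851 mouse promoters of that length 1.65% hold at least as many, and the median promoter holds 7. The base content describes the sequence, and its methylation was not measured here. Of the 3 genes whose promoter was to be shown, Htr7, Zkscan7 and H19, Htr7 alone had an entry.

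Zkscan7 on chromosome 9 (122885685 to 122898618), a zinc finger gene of the KRAB and SCAN domain class, came next among the genes averaging 10 CPM or more in line 2. It was at 18.1, 16.4 and 17.8 CPM in line 2 and at 0.106, 0 and 0 CPM in line 1. Here line 1 was the group that stood apart, since AF and AFX samples were between 6.98 and 13.6 CPM. The level in line 2 was at least 54.2-fold higher than the floor (adjusted p = 7.83e-08). The gene overlaps A530083I20Rik, so its reads are uncertain where the counting did not use strand.

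Imprinted genes held a pair of the largest differences. Kcnq1ot1, a long noncoding RNA of the paternal chromosome that silences its neighbours in the Kcnq1 domain, lies at 143203458 to 143296549 on the minus strand of chromosome 7. It was at 268, 378 and 332 CPM in line 2 and at 1.81, 1.16 and 1.66 CPM in line 1. The AF samples were at 144 to 210 CPM, the AFX samples at 1.61 to 2.44 CPM and the 9 epiblasts at 183 to 318 CPM. Line 2 and AF therefore fell near the level of the embryo and line 1 and AFX far below it. The log2 fold change was 7.69 ± 0.25 (SE, adjusted p = 3.28e-11). The transcript runs antisense to Kcnq1, which had at most 2 counts in any FS sample. Cdkn1c, a cell cycle inhibitor that this RNA is known to silence, was at 38.8, 64.5 and 61.2 CPM in line 1 and 45, 44.4 and 46.4 CPM in line 2, and the samples overlapped (log2 fold change -0.28, adjusted p = 0.50).

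H19, a noncoding RNA of the maternal chromosome that shares its control region with the growth factor gene Igf2, lies at 142575529 to 142578143 on chromosome 7. It was at 26.6, 18.3 and 31 CPM in line 2 and at 0.212, 0.129 and 0.0871 CPM in line 1, at least 78.6-fold higher than the floor (adjusted p = 0.00681). The epiblasts were at 37.8 to 153 CPM, above every FS sample, and the AF and AFX samples at 0.3 to 12.5 CPM. Igf2 was at 25.7, 53.3 and 20.5 CPM in line 1 and 15.1, 12.6 and 21.5 CPM in line 2, with overlap, and did not pass (log2 fold change -0.99, adjusted p = 0.26). Of its 31-base words 63.1% are shared with other genes, so its counts are uncertain. Epiblast values here and below were scaled over all 21 samples and are set beside the cultured ones for orientation.

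Of 51 imprinted genes tested 5 were called higher in line 2 and none lower, beside 2.55% and 1.2% of all autosomal genes, with a list median of 0.07 (0.06 with genes at the floor set to their bound). Of these 51 genes 17 had an unadjusted p under 0.05, 13 higher and 4 lower, beside 17.3% of all autosomal genes. Besides Kcnq1ot1 and H19 the called genes were Mkrn3, Rian and Meg3. Rian and Meg3 are noncoding RNAs of one maternally expressed domain on chromosome 12. Rian was at 419, 468 and 561 CPM in line 1 and 730, 884 and 780 CPM in line 2 (log2 fold change 0.73 ± 0.13, SE). Meg3 was at 414, 515 and 607 CPM against 667, 820 and 841 CPM (0.60 ± 0.14, SE). The samples of the lines did not overlap in either gene, and both lines were above the AF samples, at most 332 CPM for Rian and 273 CPM for Meg3. Mkrn3, a paternally expressed zinc finger gene, was at 0, 1.29 and 0.174 CPM in line 1 and 5.45, 4.72 and 5.79 CPM in line 2. The call of Meg3 was lost in 4 of the 6 fits that left out 1 FS sample (adjusted p up to 0.109), and that of Mkrn3 without passage 18 of line 1 (0.0739) or passage 16 of line 2 (0.0542). Calls of Kcnq1ot1, H19 and Rian were kept in all 6 of these fits, but that of H19 was lost with passage 18 of line 1 and passage 16 of line 2 left out together (adjusted p = 0.0656).

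**Figure D2:**
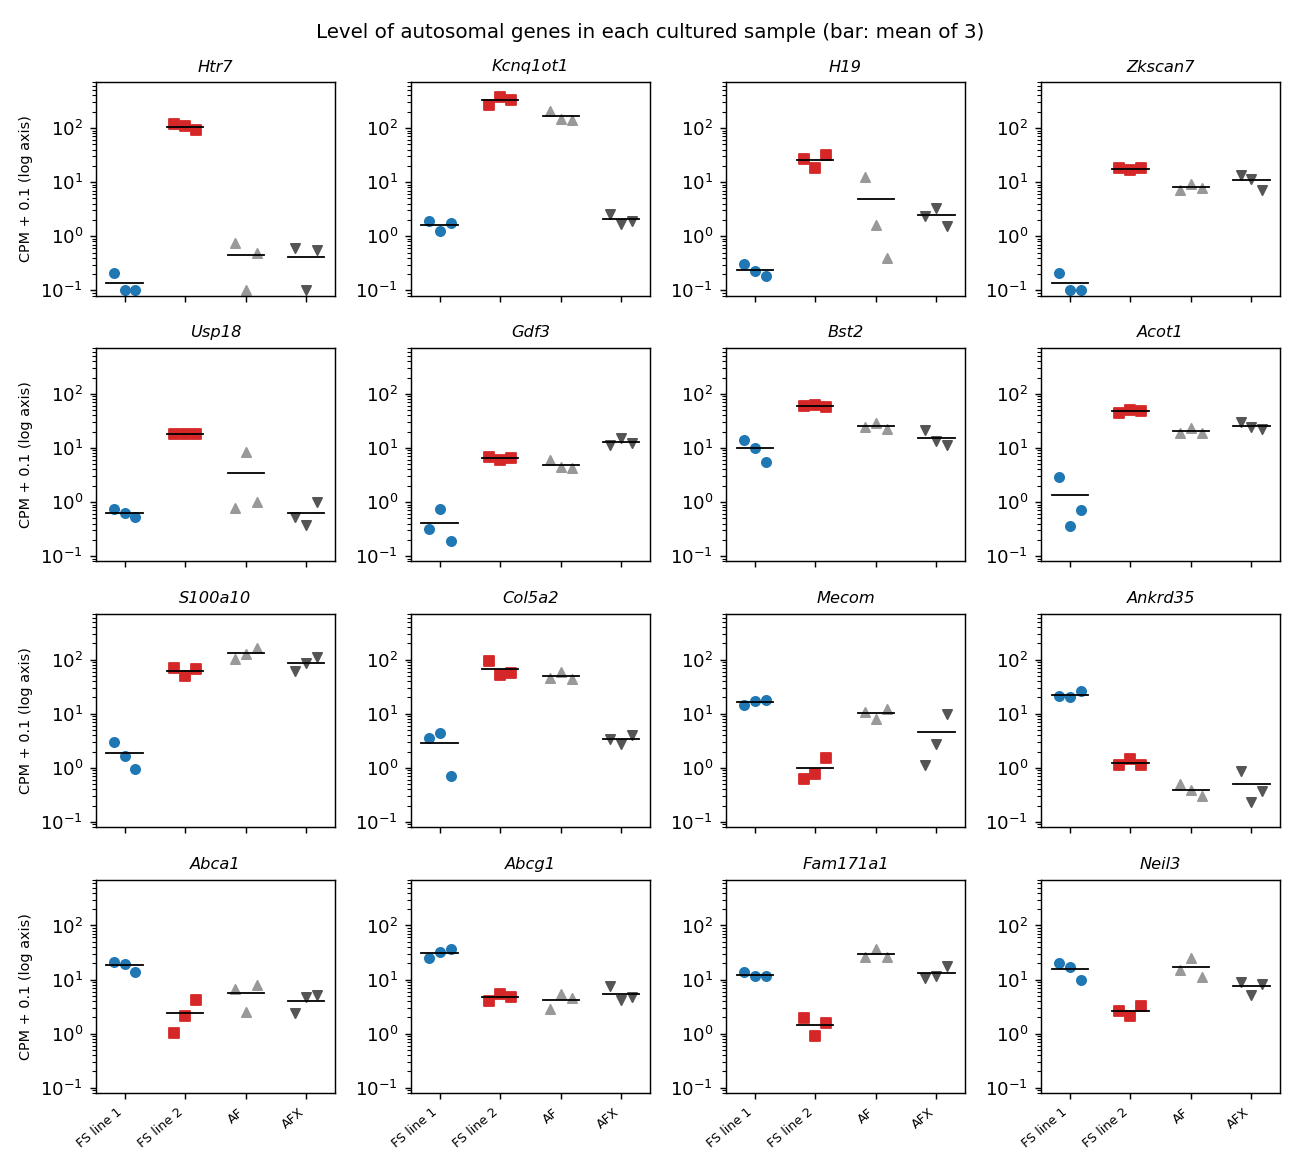
Each panel is 1 gene. Points are the 3 samples of FS line 1 (blue circles), FS line 2 (red squares), AF EpiSCs (grey upward triangles) and AFX EpiSCs (dark downward triangles), the bars are means of 3, and the y axis is CPM + 0.1 on a log scale. Htr7 is high in line 2 alone, Kcnq1ot1 in line 2 and AF, and Ankrd35, Abca1 and Abcg1 are highest in line 1.

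Genes of the interferon response, which respond to viral RNA and secreted interferon, made up the longest set of called members of any list. Of 36 tested members 9 were higher in line 2 and 2 lower, beside 2.55% and 1.2% of all autosomal genes, with a list median of 0.26 against -0.02. Of the 36, 17 did not overlap between the lines, beside 27.2% of all autosomal genes. Irf9 encodes a subunit of a transcription factor that acts below the interferon receptors. Irf9 was at 5.92 to 8.71 CPM in line 1 and 17.8 to 22.6 CPM in line 2.

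Sensors and effectors of the same list were higher in line 2 as well. Usp18, a protease that removes the ubiquitin-like ISG15 and dampens the receptor, was at 0.637, 0.515 and 0.436 CPM in line 1 and 17.7, 17.6 and 17.8 CPM in line 2 (log2 fold change 5.05 ± 0.82, SE, adjusted p = 0.00373). The spread within line 2 was narrow, and 1 AF sample reached 8.41 CPM while no epiblast exceeded 0.245 CPM. Bst2, which tethers budding virus to the membrane, was at 13.9, 9.78 and 5.49 CPM against 59.9, 61.9 and 56.2 CPM (2.62 ± 0.29, SE). Ddx58, which encodes the RNA sensor RIG-I, was at 1.92 to 7.33 CPM against 15.8 to 22.3 CPM (2.07 ± 0.36, SE). The related sensor gene Ifih1 had no count in line 1 and was at 0.511 to 1.69 CPM in line 2, at least 3.52-fold above the floor. Ifit1, Gbp3 and Ifitm3 were higher too and were at most 6.22 CPM in any FS sample.

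Both members called lower were MHC class I genes. H2-K1 was at 37.9, 35.6 and 35.2 CPM in line 1 and 17, 11.9 and 14.5 CPM in line 2 (log2 fold change -1.32 ± 0.26, SE), and H2-T22 at 3.49 to 6.18 CPM against 0.255 to 0.603 CPM. The class I genes lie on chromosome 17 and share sequence, with 22.8% of the 31-base words of H2-K1 transcripts and 67.4% of those of H2-T22 found in other genes, so their counts are uncertain. H2-D1 of the same class was at 27.6 to 31.4 CPM in line 1 and 44.4 to 50.1 CPM in line 2 and missed the threshold (0.68, adjusted p = 0.069). The list therefore did not move in 1 direction. The calls of Usp18, Bst2, Ddx58 and H2-T22 were kept with any 1 FS sample left out, and that of Usp18 was lost without passage 18 of line 1 and passage 16 of line 2 together (adjusted p = 0.0537). Those of Irf9, Ifit1, Gbp3, Ifih1, Ifitm3 and H2-K1 were lost in 2, 3, 3, 5, 5 and 1 of these 6 fits, with an adjusted p of up to 0.136, H2-K1 without passage 13 of line 2 (0.0564).

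A further 13 antiviral genes, chosen after their values were seen, were all called higher in line 2. They were the interferon-inducible GTPase genes Irgm1, Irgm2 and Mx2, the 2-5A synthetase genes Oas1a and Oas1g, the kinase gene Eif2ak2, and Parp10, Parp12, Zc3hav1, Rnf213, Herc6, Helz2 and Trim30a. Parp12 was at 0.212, 0 and 0 CPM in line 1 and 8, 13.4 and 6.87 CPM in line 2. Rnf213 was at 49.4, 47.1 and 28.6 CPM against 109, 216 and 185 CPM, and Eif2ak2 at 20.2, 20.2 and 24 CPM against 36.7, 48.9 and 38.7 CPM. Irgm1, Irgm2 and Rnf213 lie on chromosome 11, described further on, and Eif2ak2 on chromosome 17. The call was kept with any 1 FS sample left out for 10 of the 13, and lost in at least 1 such fit for Mx2, Oas1g and Herc6. Without passages 18 and 16 together Irgm1, Irgm2, Oas1a, Parp10 and Trim30a lost it too (adjusted p 0.0546 to 0.0833). Since the choice followed the values, their number is no measure of how many antiviral genes differed.

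**Figure D3:**
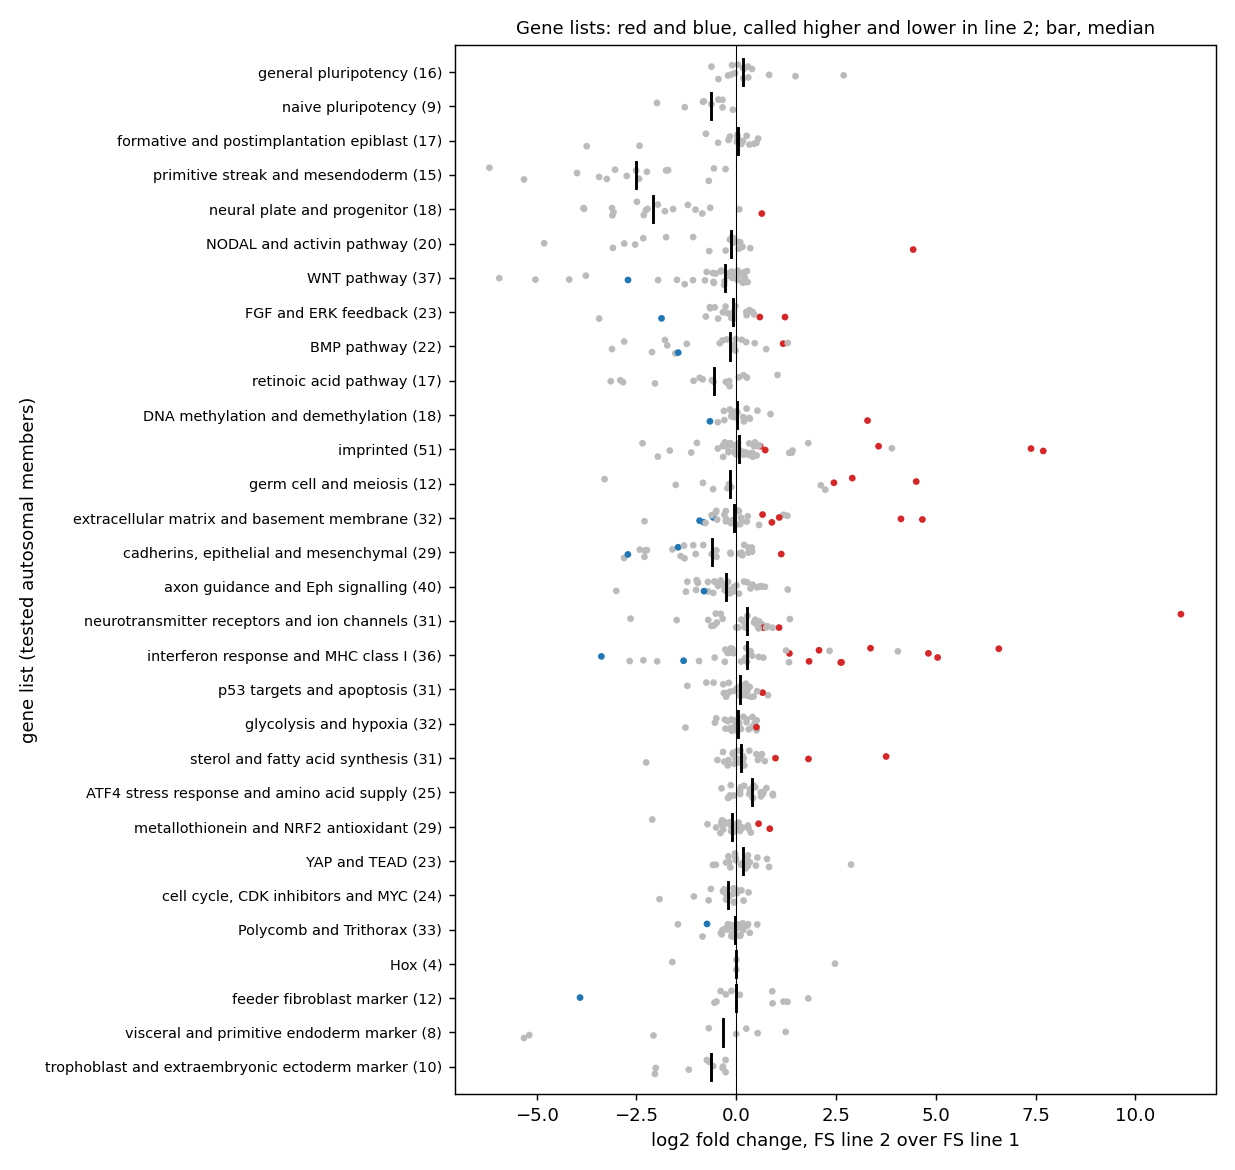
Points are the tested autosomal members of each of 30 gene lists, with their number in brackets, and the x axis is the log2 fold change of FS line 2 over FS line 1. Red and blue points were called higher and lower in line 2, grey points were not called, and the bar is the list's median. The interferon list has 9 red and 2 blue points, and the primitive streak list none, with its median at -2.51.

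Of 31 sterol and fatty acid synthesis genes 3 were called higher in line 2 and none lower, with a list median of 0.13, beside 2.55% higher and 1.2% lower of all autosomal genes. Idi1, of the isoprenoid steps, was at 78.9, 65.9 and 81.4 CPM in line 1 and 250, 354 and 191 CPM in line 2 (log2 fold change 1.81 ± 0.22, SE), and Fdft1, squalene synthase, at 101, 86.8 and 102 CPM against 190, 234 and 150 CPM (0.98 ± 0.17, SE). The samples of the lines did not overlap in either gene. Idi1 and Fdft1 share 27.1% and 31.9% of their 31-base words with other genes.

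Abca1 and Abcg1, which encode cholesterol exporters and were named for their size, were among the 15 largest differences in the other direction. Abca1 was at 21.3, 19.6 and 13.8 CPM in line 1 and 0.937, 2.02 and 4.04 CPM in line 2 (log2 fold change -2.92 ± 0.51, SE, adjusted p = 0.00468). Abcg1 was at 25.2, 31.6 and 36.5 CPM against 4, 5.4 and 4.64 CPM (-2.74 ± 0.28, SE, adjusted p = 2.17e-05). For both genes line 1 was the group that stood apart, since the AF and AFX samples reached at most 7.71 CPM for Abca1 and 7.41 CPM for Abcg1. Abcg1 lies on chromosome 17. Idi1, Fdft1, Abca1 and Abcg1 kept the call with any 1 FS sample left out.

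Other genes with a large difference in one direction had varied roles. Acot1, a cytosolic thioesterase of fatty acyl-CoA, was at 2.87, 0.257 and 0.61 CPM in line 1 and 44.5, 49.3 and 47.5 CPM in line 2, and shares 22.8% of its 31-base words with other genes. S100a10, the partner of annexin A2, was at 2.87, 1.54 and 0.871 CPM against 68.9, 50.7 and 66 CPM. The AF and AFX samples were at 18.9 to 29.6 CPM for Acot1, between the lines, and at 62 to 162 CPM for S100a10, far above line 1. Col5a2, a fibrillar collagen chain, was at 3.4, 4.37 and 0.61 CPM in line 1 and 93.8, 52 and 56.5 CPM in line 2. Col5a2 was also at 44.7 to 59.2 CPM in AF but at most 3.94 CPM in AFX.

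Mecom led the protein-coding genes lower in line 2 together with Ankrd35. Mecom, which encodes the zinc finger factor EVI1 and the related PRDM3, was at 14.3, 17.2 and 18 CPM in line 1 and 0.511, 0.674 and 1.45 CPM in line 2 (log2 fold change -4.14 ± 0.67, SE, adjusted p = 0.00373). The gene spans 29951296 to 30548008 on chromosome 3, and the loci Gm38066, Gm38197 and Gm37652, which lie within it, were lower too and may count reads of the same transcript. Ankrd35 was at 20.8, 20.5 and 26 CPM against 1.02, 1.35 and 1.03 CPM. In the AF and AFX samples Ankrd35 was at most 0.791 CPM, so line 1 alone was high. Neil3, a DNA glycosylase that acts on oxidised bases, was at 20.2, 17 and 9.93 CPM against 2.55, 2.02 and 3.14 CPM. Fam171a1 was at 11.6 to 13.7 CPM against 0.787 to 1.87 CPM, with AF, AFX and epiblasts all above line 2, at 10.7 to 36.5 CPM. Cldn7, a tight junction claudin, was at 10.3, 15.2 and 4.71 CPM against 1.79, 1.35 and 1.39 CPM, and its call was lost in 4 of the 6 fits that left out a sample, without passage 11 of line 1 or any passage of line 2 (adjusted p 0.0572 to 0.0792).

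Some of the largest differences came from loci that share sequence and are uncertain as single genes. Wdr31, a WD repeat gene of chromosome 4, was at 21.9, 18.5 and 15.8 CPM in line 1 and 979, 1156 and 1193 CPM in line 2. The loci Gm14149, Gm10040, Gm9864, Gm43108, Gm11127 and Gm19757, on chromosomes 2, 3, 6 and 17, rose with it, and these 7 loci were linked by shared 31-base words (at least 5% of the smaller of a pair). Their summed level was 166, 73.6 and 81.6 CPM in line 1 and 3702, 4205 and 4513 CPM in line 2, with AF at 84.5 to 131 CPM and AFX at 1680 to 2076 CPM. AFX thus lay between the FS lines, while AF stayed with line 1. Which of the 7 loci the reads came from cannot be told from gene counts. Among those lower in line 2, RP24-286J21.7 and Gm43549 were linked in the same way, as were Rps19-ps1 and Rps19-ps2, and Platr15, a noncoding RNA of embryonic stem cells, was at 13.7, 13.8 and 10.2 CPM in line 1 and at most 0.255 CPM in line 2, with 34.3% of its words shared. The pseudogenes Gm12191 and Gm7666 and the coding model Gm9008, with over 80% of their words in other genes, were lower in line 2. Of the 579 called genes 25.6% shared over 20% of their words with other genes, against 17.9% of all autosomal genes tested.

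Neighbouring genes called in 1 direction formed 6 runs of at least 3. Apart from Mecom and the loci in it, they were Cyp2j13, Cyp2j6 and Cyp2j9 on chromosome 4, Trim34b, Trim12c and Trim30a on chromosome 7, Slc2a12, Tbpl1 and the pseudogene Gm26585 on chromosome 10, 3 pseudogenes on chromosome 8 (Gm21811, 6820431F20Rik and 2610005L07Rik) and 7 genes of a repeated family on chromosome 14 (Gm3020, Gm3002, Gm3095, Gm5796, Gm8108, Gm2974 and 2610042L04Rik). All but the Mecom run were higher in line 2. The Cyp2j genes encode cytochrome P450 epoxygenases. Cyp2j6 was at 0.212, 0.257 and 0.61 CPM in line 1 and 3.83, 3.71 and 3.26 CPM in line 2, and Cyp2j9 had no count in line 1 and was at 1.12 to 2.04 CPM in line 2. The glucose transporter gene Slc2a12 was at 2.23, 2.57 and 1.48 CPM against 13.9, 11 and 15.6 CPM. The chromosome 14 and chromosome 8 genes share 24.5% to 99.7% of their words with other genes and are uncertain. Leaving out 1 FS sample ended the call in at least 1 of the 6 fits for Cyp2j13, Trim34b, Tbpl1, Gm21811, Gm3020, Gm5796, Gm8108, Gm38066 and Gm37652. Leaving out passages 18 and 16 together also ended those of Trim30a, Slc2a12, Gm26585, Gm2974, Gm3095 and Gm38197 (adjusted p 0.062 to 0.09). The calls of Gm3020 and Gm8108 were lost with the 6 FS samples fitted alone (0.0798 and 0.0624), that of Gm3020 with a filter of 5 CPM (0.0528) and that of Trim34b with no filter (0.0686).

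None of 16 general pluripotency genes, 9 naive genes or 17 formative genes was called, beside 3.75% of all autosomal genes, with list medians of 0.17, -0.62 (-0.53 with bounds) and 0.03. All 9 naive genes had a negative log2 fold change, though 1 of them had at most 3 counts in every FS sample, so its sign tells nothing. At an unadjusted p under 0.05 there were 4, 1 and 3 in these lists, beside 17.3% of all autosomal genes. Nanog was at 30.8, 21.7 and 26.8 CPM in line 1 and 11.8, 22.4 and 17.6 CPM in line 2, with overlap, and Otx2, a factor of the early postimplantation epiblast, at 62.4 to 122 CPM against 97 to 104 CPM. These tests do not show that the levels were equal.

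Lineage genes were uneven between the passages of line 1. All 15 primitive streak genes tested had a negative log2 fold change (median -2.51, -1.76 with bounds) and none was called, against a median of -0.02 over all autosomal genes, with 5 at an unadjusted p under 0.05, all lower, beside 8.59% of all autosomal genes. Of the 15, 2 had at most 3 counts in every FS sample, so their sign tells nothing. Passage 10 of line 1 was high: T (Brachyury), which marks the primitive streak, was at 32.6, 3.73 and 0.349 CPM in line 1 and 0, 0.112 and 1.75 CPM in line 2, and Fgf8 at 29.2, 8.75 and 8.97 CPM against 0.596, 1.01 and 2.41 CPM. Fgf8 missed the threshold in the main fit (edgeR quasi-likelihood adjusted p = 0.0689). It was called lower with a filter of 5 CPM (0.0462), the 6 FS samples alone (0.0403), DESeq2's Wald test (0.00283) and no filter. Of 18 neural plate genes 16 were lower in line 2 (median -2.09), of which 10 had an unadjusted p under 0.05 (beside the same 8.59%) and none was called. The neural adhesion gene Ncam1 was called higher in line 2 (log2 fold change 0.64), and lost the call in all 6 fits that left out a sample and with a filter of 5 CPM (adjusted p = 0.0534). Which passage of line 1 was high differed between these genes. The forebrain genes Six3 and Hesx1 were at 0.85, 11.2 and 25.7 CPM and at 1.06, 8.75 and 13.9 CPM in passages 10, 11 and 18, and line 2 stayed at or below 1.93 CPM. Irx3, of the posterior neural plate, was at 44.9, 31.6 and 5.49 CPM in the same order against 1.36, 1.57 and 13.1 CPM. In bulk samples fewer cells of a type and less RNA per cell cannot be told apart.

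Of 23 FGF and ERK feedback genes Fgf4 (27.8, 33.9 and 24.5 CPM in line 2, above each of the line 1 samples) and the ERK phosphatase gene Dusp6 were higher and the receptor gene Fgfr2 lower (30.7, 54.7 and 55.6 CPM against 12.6, 5.85 and 19.2 CPM). Of 20 NODAL and activin genes the TGF-beta family ligand gene Gdf3 was higher, at 0.212, 0.643 and 0.0871 CPM against 6.81, 5.96 and 6.45 CPM (log2 fold change 4.43 ± 0.44, SE, adjusted p = 1.95e-05). Nodal was at 6.37, 4.25 and 4.71 CPM against 0.852, 1.46 and 0.482 CPM and missed the threshold (-2.53, adjusted p = 0.14). Of 22 BMP genes the pseudoreceptor gene Bambi was higher and the inhibitory Smad6 lower, of 37 WNT genes the secreted antagonist gene Frzb was lower, and of 17 retinoic acid genes none was called, beside 2.55% called higher and 1.2% called lower of all autosomal genes. At an unadjusted p under 0.05, 7 of the 17 retinoic acid genes, 8 of the 37 WNT genes, 6 of the 22 BMP genes and 2 each of the 20 NODAL and 23 FGF genes were lower in line 2, beside 8.59% of all autosomal genes. Higher were 0, 1, 1, 1 and 3 of them in the same order, beside 8.7%. List medians were between -0.57 (retinoic acid) and -0.09 (FGF). Gdf3 and Bambi kept the call with any 1 FS sample left out, though Bambi lost it without passages 18 and 16 together (adjusted p = 0.125, log2 fold change 0.90), while Fgf4, Dusp6, Fgfr2, Frzb and Smad6 each lost it in 3 to 6 of the 6 fits. With the 6 FS samples fitted alone Fgfr2 and Smad6 lost it as well (adjusted p = 0.0704 and 0.0551), and Fgfr2 also with autosomal genes only (0.0503) or without ribosomal RNA loci (0.0502).

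Of the hedgehog pathway, looked at after the values were seen, Gli2 was lower in line 2, at 60.7, 48.8 and 40.1 CPM in line 1 and 17.5, 13.5 and 28.8 CPM in line 2 (log2 fold change -1.31 ± 0.26, SE). Gli1, a target of the pathway, was at 5.84, 14 and 1.31 CPM against 0.511, 0.674 and 1.09 CPM, and the receptor gene Ptch1 at 60, 118 and 18.9 CPM against 17.5, 17.4 and 28.3 CPM with overlap (-1.62, adjusted p = 0.15). The call of Gli2 was lost without passage 12 of line 2 (adjusted p = 0.063), and that of Gli1 in 4 of the 6 fits and with the 6 FS samples fitted alone (0.0698).

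Of 32 extracellular matrix genes 5 were higher in line 2 (Col5a2, the laminin chain gene Lama4, Sparc and the integrin genes Itga6 and Itgb1) and 3 lower (Col4a1, Col4a2 and Col5a1), with a median of -0.05, beside 2.55% higher and 1.2% lower of all autosomal genes. Itga6 was at 109, 144 and 123 CPM in line 1 and 241, 262 and 195 CPM in line 2. The basement membrane collagen genes Col4a1 and Col4a2, which face each other on chromosome 8, were at 98.3, 121 and 82.8 CPM and 36.1, 45.9 and 25.3 CPM in line 1 and at 55.6, 47.7 and 67.4 CPM and 22.2, 15.5 and 18.6 CPM in line 2. Of 29 cadherin, epithelial and mesenchymal genes Cdh10 was higher and Cldn6 and Cldn7 lower. The median of these 29 was -0.62, with 19 below 0, and at an unadjusted p under 0.05 were 11 lower and 2 higher, beside 8.59% and 8.7% of all autosomal genes. Col5a2, Lama4, Itga6 and Cdh10 kept the call with any 1 FS sample left out, though Lama4 lost it without passages 18 and 16 together (adjusted p = 0.0718), and Sparc, Itgb1, Col4a1, Col4a2, Col5a1 and Cldn6 lost it in 3 to 6 of the 6 fits. Col5a1 also lost it with DESeq2 size factors, with a filter of 5 CPM and with autosomal genes only (adjusted p 0.0501 to 0.0516).

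Of 12 germ cell and meiosis genes tested 3 were higher and none lower, with a list median of -0.16 that turned to 1.00 with bounds. Of all autosomal genes 2.55% were called higher and 1.2% lower. Stag3 and Rec8 are subunits of meiotic cohesin, and Rnf17 belongs to the germ granule. Stag3 was at 9.98, 1.16 and 5.84 CPM in line 1 and 45.6, 50.2 and 34.2 CPM in line 2, Rec8 at 0.212, 0 and 0 CPM against 1.79, 1.91 and 1.87 CPM, and Rnf17 at 1.7, 0.129 and 0.61 CPM against 2.9, 5.62 and 5.25 CPM. All 3 lost the call in 2 to 5 of the fits that left out a sample (adjusted p up to 0.0948). The recombinase gene Dmc1, chosen after its values were seen, was at 0.531, 0 and 0.0871 CPM against 5.79, 6.07 and 5.79 CPM. Of 18 DNA methylation genes Dnmt3l, a cofactor of the de novo enzymes, was higher (0.319, 0.386 and 0.174 CPM against 3.92, 1.46 and 3.14 CPM) and Uhrf1, which brings the maintenance enzyme to DNA and lies on chromosome 17, lower (416, 398 and 525 CPM against 272, 279 and 296 CPM). Both were lost in 4 or 5 of the 6 fits.

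Of 31 receptor and ion channel genes Htr7, Gria4 and Kcnj3 were higher, of 40 axon guidance genes Ephb2 was lower, and of 33 Polycomb and Trithorax genes Phc2 was lower. The median of the 40 axon guidance genes was -0.24, with 28 below 0. At an unadjusted p under 0.05 were 11 of them lower and 1 higher, beside 8.59% and 8.7% of all autosomal genes. Ccng1 (of 31 p53 and apoptosis genes) and Slc16a3 (of 32 glycolysis genes), both on chromosome 11, and Cat and Gstm5 (of 29 antioxidant genes) were higher. Of these Kcnj3, Slc16a3, Cat and Gstm5 lost the call in 4 to 6 of the 6 fits, Kcnj3 also with the 6 FS samples fitted alone (adjusted p = 0.0707), and Ccng1 without passages 18 and 16 together (adjusted p = 0.0646). No gene was called in the ATF4 (25 tested), YAP (23), cell cycle (24) or Hox (4) lists. All 4 Hox genes had at most 3 counts in every FS sample, so they could not be compared between the lines. Among markers of other cells Postn was called lower, at most 0.901 CPM in any FS sample and lost in all 6 fits, and the summed level of 13 feeder fibroblast markers was 62 to 101 CPM in line 1 and 53.8 to 115 CPM in line 2, with Lum at 0. For 17 visceral endoderm markers the sums were 11.7 to 17.4 CPM and 13.2 to 15.2 CPM, and for 16 trophoblast markers 70 to 88.8 CPM and 59.3 to 72.8 CPM. In all 53 of 675 list members tested were called, 7.85% beside 3.75% of all autosomal genes, and 22 of them kept the call with any 1 FS sample left out. The lists were chosen with earlier results of these data known, so the larger share is no measure of how far these pathways differed.

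Autosomes 11 and 17 stood apart as whole chromosomes. On chromosome 11 the median log2 fold change of 1200 genes was 0.24, with 72 called higher and 10 lower, and 74.1% of its genes were above 0. On chromosome 17 the median of 718 genes was -0.23, with 26 called lower and 7 higher, and 78.4% were below 0. The other 17 autosomes had medians between -0.08 and 0.02. Chromosome 11 carried 7.77% of the genes tested and 18.3% of those called higher, and chromosome 17 carried 4.65% of the genes tested and 14% of those called lower. Most single differences on chromosome 11 were small, with 56 of the 72 under 2-fold.

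**Figure D4:**
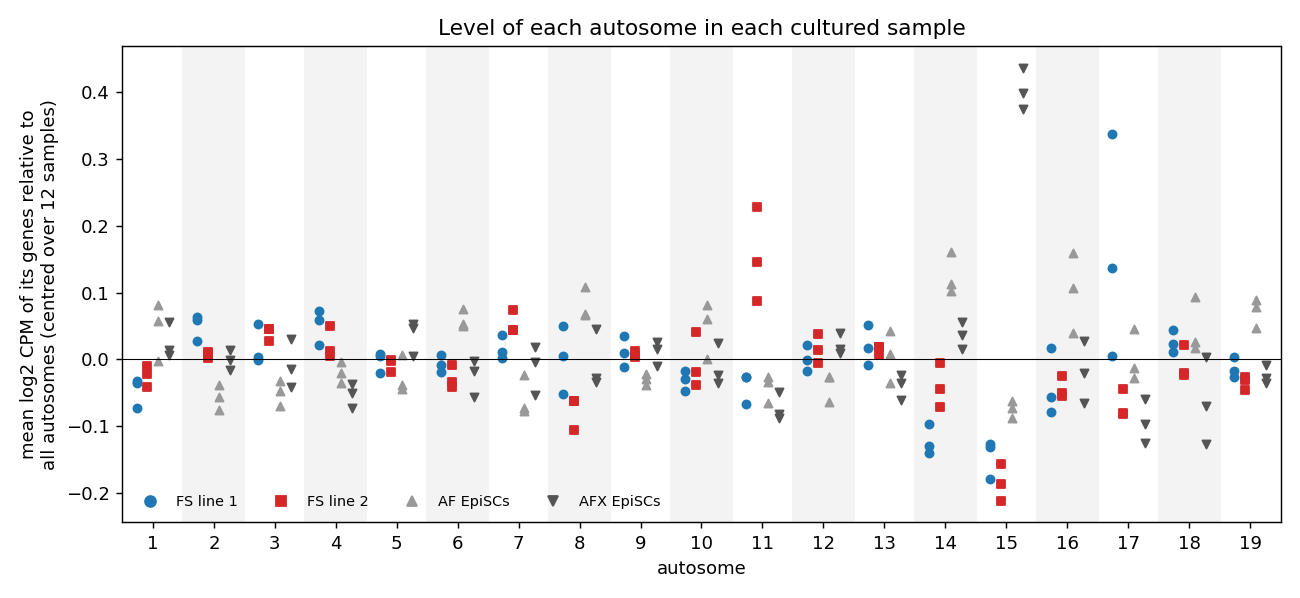
The y axis is the mean log2 CPM of the tested genes of each autosome relative to all autosomes, centred over the 12 cultured samples, and each point is 1 sample. Line 2 (red squares) lies above all others on chromosome 11, at 0.09, 0.15 and 0.23, and passages 11 and 18 of line 1 (blue circles) above all others on chromosome 17, at 0.14 and 0.34. The AFX samples (dark triangles) stand apart on chromosome 15.

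The level of each chromosome per sample showed which samples stood apart from the other cultured ones. Chromosome 11, relative to all autosomes and to the mean of the 12 cultured samples, was at 0.09, 0.15 and 0.23 on the log2 scale in passages 12, 13 and 16 of line 2. It was at -0.03, -0.03 and -0.07 in line 1 and -0.09 to -0.03 in the EpiSC samples, so line 2 was the one above the rest. Chromosome 17 was at 0.01, 0.14 and 0.34 in passages 10, 11 and 18 of line 1, at -0.04, -0.08 and -0.08 in line 2, and at -0.12 to 0.04 in the EpiSC samples. There passages 11 and 18 of line 1 were above the rest, and passage 10 was not. The lines differed by 0.19 on chromosome 11 and -0.23 on chromosome 17, and both had p = 0.1 in an exact two-sided permutation test, the smallest that 3 against 3 samples allow (adjusted over 19 autosomes 0.27). Chromosomes 2, 7, 8, 14 and 19 had the same p, with differences of -0.04, 0.04, -0.08, 0.08 and -0.02, so the test does not set 11 and 17 apart from them. The chromosome 17 median was -0.14 without passage 18 of line 1 and -0.34 without passage 10, and without passage 16 of line 2 the chromosome 11 median was 0.17.

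The shift ran along each chromosome. In 14 windows of neighbouring genes along chromosome 11 (50 genes each, more in the last, with a mean of at least 10 CPM) the median log2 fold change was between 0.08 and 0.30, and in 8 such windows along chromosome 17 between -0.36 and -0.16. Passages 13 and 16 of line 2 were above the autosomal level in 14 of 14 windows of chromosome 11 and passage 12 in 13. Passages 11 and 18 of line 1 were above it in 8 of 8 windows of chromosome 17 and passage 10 in 1. Among genes not called, the medians were 0.22 and -0.23, so the shift was not limited to the called genes. DNA copy number was not measured, and its part in these levels was not tested.

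**Figure D5:**
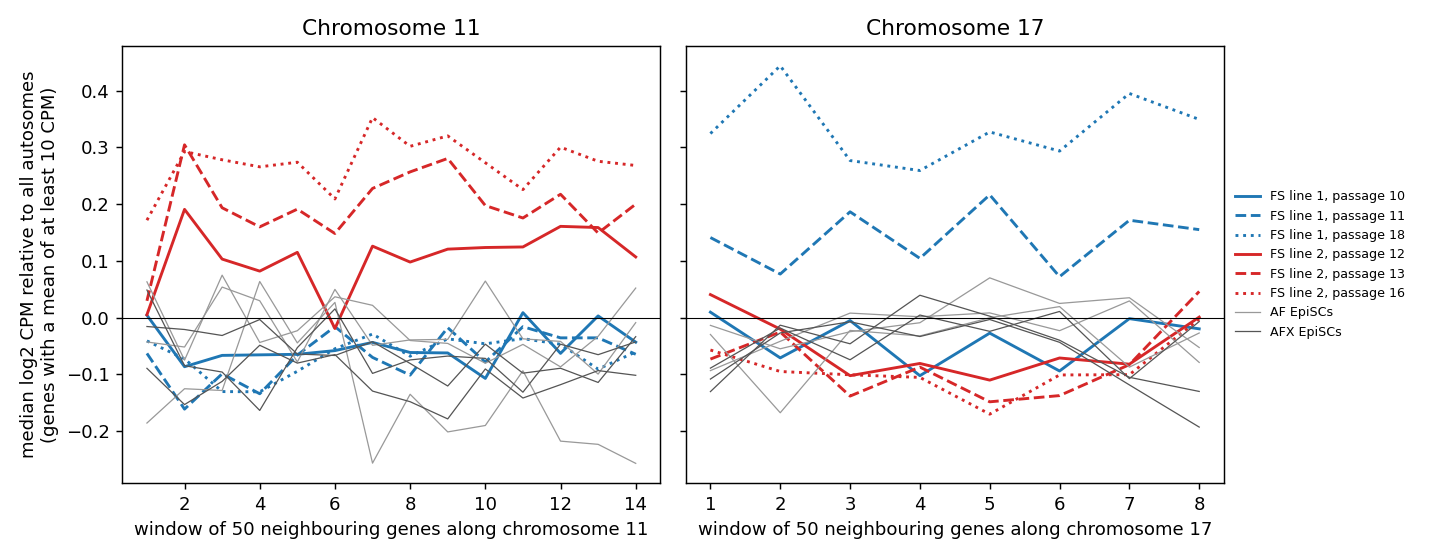
Lines are samples, the x axis counts windows of neighbouring genes in chromosome order and the y axis is the median log2 CPM of a window relative to all autosomes, for genes with a mean of at least 10 CPM. Red lines (line 2) lie above the others along nearly all of chromosome 11, and the dashed and dotted blue lines (line 1, passages 11 and 18) along all of chromosome 17.

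Away from chromosomes 11 and 17, 464 of 13524 autosomal genes were called (3.43%), 314 higher and 150 lower in line 2. Called list members on these chromosomes were, on 11, Ccng1, Slc16a3, Sparc and Cldn7, the last lower in line 2 against the shift of its chromosome. On 17 they were Cldn6, H2-K1, H2-T22 and Uhrf1, all lower with the shift. None of Htr7, Zkscan7, Kcnq1ot1, H19, Usp18, Abca1, Mecom or Ankrd35 lies on either chromosome.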

How the data were processed

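The authors deposited gene-level read counts from total RNA of 21 samples. Per the submitters' processing notes, Trim Galore, TopHat2 2.1.0, featureCounts 1.5.0 and mm10 were used; the order, options and strand setting are not given in the sources used here. Deposited counts were taken as whole numbers. From them edgeR 4.0.16 (R 4.3.3) fitted 12 cultured samples in 4 groups (filterByExpr, TMM scaling, robust quasi-likelihood F-test), and FS line 2 was contrasted with FS line 1. P-values were adjusted by Benjamini-Hochberg over 16052 genes. Chromosomes came from GENCODE M21 for 16010 of these, and 42 had none. Counting error alone bounds the floor of 3 counts. Genes were named by size (15 per direction, at least 10 CPM in the higher line), by list membership or in runs of 3, and some genes that this rule names are not reported here. The members and the 30 lists were chosen with earlier results of these data known. The scripts were tested on simulated data. Replicate pairs differed beyond sampling noise (chi-square per degree of freedom 8.11 to 10.8). Alternatives included DESeq2 1.42.0, other filters and samples left out.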

Additional observations from a re-analysis of the deposited data

How the results depend on the processing

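The 579 calls (393 higher, 186 lower) became 1041 (637 and 404) with DESeq2's Wald test, 1230 (676 and 554) without a filter and 995 (623 and 372) with the 6 FS samples alone. Calls higher in line 2 were 67.9% of the main calls and 55% without a filter. Leaving out 1 FS sample at a time gave 294 to 451 calls, 212 to 297 higher and 82 to 169 lower. Leaving out passage 18 of line 1 and passage 16 of line 2 together, chosen after seeing the data, gave 260 (154 and 106). Under the other 6 alternatives, 2 of them chosen after seeing the data, the counts stayed within 1.5 times. Of the 579, 285 to 379 were called again with 1 sample left out, and none called again changed sign. The medians of chromosomes 11 and 17 kept their sign under each alternative for which they were computed. Among genes with no call, the sign turned with 1 sample left out for Otx2 (-0.034 to 0.47), Pou5f1 (-0.19 to 0.046) and Sox2 (-0.17 to 0.25), and Pou5f1 was at 0.095 without passages 18 and 16. The cause was not tested. No paired analysis was possible because the lines share no passage number.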

Other observations

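Chromosome 15 stood apart in the AFX EpiSCs, outside the comparison of the FS lines. Its mean level, relative to all autosomes and to the 12 cultured samples, was 0.40, 0.44 and 0.37 on the log2 scale in the 3 AFX samples, and between -0.21 and -0.06 in the 9 other cultured samples, with no overlap. Between the FS lines the difference on chromosome 15 was -0.04.

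The meiotic helicase gene Hfm1, chosen after its values were seen, was at 1.06, 0.386 and 0.523 CPM in line 1 and 1.96, 3.93 and 4.58 CPM in line 2. Its call (log2 fold change 2.38, edgeR quasi-likelihood adjusted p = 0.0237) was lost in 4 of the 6 fits that left out a sample, with an adjusted p of 0.0721 to 0.117.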
